A study of Mus musculus with 27 samples.

Results

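The genes described here code for the machinery that breaks fatty acids down in mitochondria and peroxisomes. A list of 46 gene symbols fixed the members, and 45 of them had a probe on the array among the 19057 genes with a symbol of their own; Acad11, an acyl-CoA dehydrogenase, had none. By the main site of their products, 21 members were mitochondrial, 17 peroxisomal, 2 were placed in both (Acad11 and the enoyl-CoA isomerase Eci2) and 6 worked elsewhere in the cell (the cytosolic thioesterases Acot1 and Acot12, the acyl-CoA synthetases Acsl3, Acsl4 and Acsl5, and the pantetheinase Vnn1). The arrays were Illumina mouse bead arrays, on which each gene is read by 1 or several short probes. Ursolic acid (UR) is a plant triterpenoid, and the study asked how adding it to a fattening diet changes gene expression in 3 metabolic tissues. Male C57BL/6J mice (spelled C56BL/6J in the strain tag) arrived at 4 weeks of age and were acclimatised on an AIN-76 diet. They were then given a normal diet (ND), a high-fat diet (HFD; 20% fat and 1% cholesterol) or the HFD with 0.05% UR for 16 weeks, and tissues were taken after a fast that all 3 groups shared. Liver, epididymal white adipose tissue (WAT) and gastrocnemius muscle were each hybridised on 9 arrays, 3 for each diet and 27 in all. Every array carried RNA pooled from several mice, so n counts pools, and p-values measure the spread between pools. The sources do not say which mice entered a pool.

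In mitochondrial beta-oxidation, long-chain acyl-CoA crosses the membranes as acylcarnitine through the carnitine palmitoyltransferases Cpt1 and Cpt2, and is then shortened in a cycle of dehydrogenation, hydration, a second dehydrogenation and thiolysis. Electrons from the first dehydrogenation pass through the electron transfer flavoprotein (Etfa, Etfb) and its dehydrogenase Etfdh to the respiratory chain. Peroxisomes shorten very long, branched and dicarboxylic acyl chains by a parallel cycle whose first enzyme is an oxidase that makes hydrogen peroxide, and the Abcd proteins bring the acyl-CoA in. In the liver many genes of both pathways are known targets of the nuclear receptor PPAR alpha, which fasting and fatty acids activate, and the acetyl-CoA formed there feeds ketone body synthesis.

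Hepatocyte markers were detected in liver (8 of 10, with Fgb and Tat not detected), adipocyte markers in WAT (6 of 6 with a probe) and skeletal muscle markers in muscle (8 to 9 of 9). In liver the summed raw signal of an array ran from 33610124 to 36807245 on ND, from 34875716 to 36249494 on HFD and from 40602071 to 45514171 on UR, and the share of probes detected ran from 34.2% to 35%, from 36.5% to 37.2% and from 38.7% to 40%. The UR liver arrays were thus the brightest, and array brightness and diet cannot be told apart there. A probe was kept in a tissue if its deposited detection p-value was below 0.05 on all 3 arrays of at least 1 diet group. That left 42 members (77 probes) in liver, 39 (68 probes) in WAT and 37 (71 probes) in muscle. Of the members, 36 were measured in every tissue; Bdh1, Acaa1b, Acot3 and Hacl1 were measured in 2, Cpt1a and Acot12 in liver alone, and Crot, Phyh and Vnn1 in none. Values below are log2 signals after quantile normalization within a tissue, a gene is represented by its brightest kept probe unless another probe is named, and p-values are limma's, adjusted by Benjamini-Hochberg over all kept probes of the tissue.

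On the normal diet the peroxisomal members were mostly higher in liver than in the other tissues, and the mitochondrial members were higher in muscle than in WAT. Of the 15 peroxisomal members measured, 14 were higher in liver than in muscle, and their median difference was 2.87 on the log2 scale; Pecr, the trans-2-enoyl-CoA reductase, was the 1 that was higher in muscle. The 21 mitochondrial members split into 4 that were higher in liver and 11 that were higher in muscle, with a median of -0.12; after median scaling of the arrays the split was 9 and 7. For this pair of tissues 79.1% of all probes passed the test and the median of all probes was -0.02. Against WAT the liver had higher levels of 18 mitochondrial members (median 0.72) and of 14 peroxisomal members (median 2.22), with 79.6% of all probes passing. WAT had 19 of 21 mitochondrial members lower than muscle (median -0.99), but had 11 peroxisomal members higher and 3 lower (median 0.41), with 77.1% of all probes passing.

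Cpt1b, the muscle form of the gatekeeper of mitochondrial import, averaged 14.40 ± 0.09 (SD, n = 3 pools) in muscle, 9.23 ± 0.19 in liver and 7.96 ± 0.04 in WAT. Its signal in muscle was therefore 36 times that in liver and 87.3 times that in WAT. The liver form Cpt1a was detected in liver only, where it averaged 8.15 ± 0.05, at least 1.38-fold above muscle and at least 1.55-fold above WAT. A bound of this kind sets the bright tissue against the lowest signal that counted as detected. Hadhb, the thiolase-bearing beta subunit of the mitochondrial trifunctional protein, averaged 14.53 ± 0.10 in muscle, 12.71 ± 0.08 in WAT and 11.45 ± 0.13 in liver, which is 8.42-fold lower in liver than in muscle. Bdh1, which interconverts the ketone bodies, averaged on its brightest probe 12.23 ± 0.05 in liver and 12.11 ± 0.09 in muscle, a difference that did not pass the test (adjusted p = 0.0892), and was at least 24-fold lower in WAT than in muscle. Its dimmer probe gave another order, 1.73 higher in liver than in muscle (adjusted p = 2.5e-15) and 0.11 apart between WAT and muscle (adjusted p = 0.361).

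Among the peroxisomal members, Acaa1b, a 3-ketoacyl-CoA thiolase, averaged 15.99 ± 0.02 in liver and 12.78 ± 0.16 in WAT, and its signal in muscle was not detected, so that liver exceeded muscle at least 316-fold. In liver its probe lay at the top of the measured range (16.01 to 16.05 on all 9 arrays when normalized within liver), where a change could not show. Liver also exceeded muscle at least 40.9-fold for the thioesterase Acot3, at least 16.2-fold for its neighbour Acot4, and 9.97-fold for Ehhadh, the L-bifunctional enzyme. The exception to the liver pattern was Abcd2, a transporter of very long-chain acyl-CoA, which averaged 12.64 ± 0.18 in WAT, 9.84 ± 0.08 in liver and 8.77 ± 0.01 in muscle. It was 6.97-fold higher in WAT than in liver and 14.6-fold higher in WAT than in muscle. Its dimmer probe was also highest in WAT, but differed by -0.37 between liver and muscle (adjusted p = 3.84e-05), the opposite order.

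**Figure D1:**
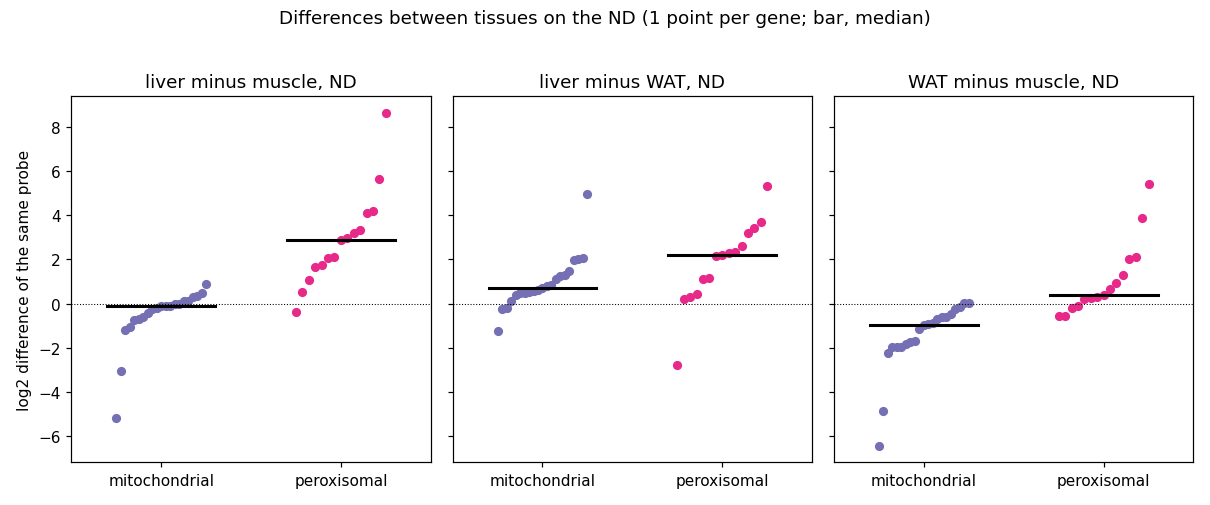
Differences in log2 level between tissues on the normal diet (vertical axis) for the members of each compartment, 1 point per member, from 3 arrays per tissue quantile-normalized together. The peroxisomal points lie to the liver side of 0 against muscle except Pecr, whereas the mitochondrial points lie on both sides, with Cpt1b at -5.17.

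In liver, HFD feeding lowered members of both compartments. Against ND, 18 of 42 members fell and 1 rose, where 11.2% of all genes tested fell and 16.3% rose; the members' median change was -0.16 on the log2 scale and that of all genes 0.00. On their brightest probes 20 members had all 3 HFD arrays below all 3 ND arrays and 3 had them above, while 41.9% of all genes had groups that did not overlap in either direction. Of the mitochondrial members 9 of 21 fell, of the peroxisomal members 6 of 15 fell and 1 rose (Acaa1a, by 0.19), and 3 of the 5 measured members of other sites fell. The largest decrease was that of Acot3, and 4 acyl-CoA thioesterases, which free the fatty acid from CoA, fell: Acot3, Acot4 and Acot8 of the peroxisome and Acot1 of the cytosol. Acot3, Acot4 and Acot1 lie next to each other on chromosome 12, in the run Acot2, Acot1, Acot4, Acot3, Acot5, Acot6, and are close paralogs. Binding of a probe to a paralog's RNA was not tested.

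The liver signals of Acot3 were 13.30, 13.23 and 13.01 in the ND pools, 12.01, 11.57 and 11.18 in the HFD pools and 12.97, 12.89 and 12.27 in the UR pools. Every HFD pool lay below every pool of the other diets. It fell by 1.59 ± 0.20 (SE) on the log2 scale with HFD, a 3.02-fold decrease (adjusted p = 0.000104). Acot4 read 11.83, 11.64 and 11.66 on ND, 11.17, 11.01 and 10.71 on HFD and 12.12, 12.17 and 11.72 on UR. Its HFD pools were again the lowest 3, and it fell by 0.75 ± 0.13 (adjusted p = 0.000914). Acot1 read 15.11, 14.91 and 15.09 on ND and 14.45, 14.16 and 14.20 on HFD, a fall of 0.77 ± 0.16 (adjusted p = 0.00431), and its second probe fell by 1.18 (adjusted p = 0.000212).

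Hacl1, the lyase that ends the alpha-oxidation of branched chains, read 10.38, 10.27 and 10.35 on ND and 9.43, 9.25 and 9.37 on HFD. With no overlap between the diets, it fell by 0.98 ± 0.09, a 1.98-fold decrease (adjusted p = 1.45e-05). Hadha, the alpha subunit of the trifunctional protein, went from 10.12, 10.03 and 9.69 to 9.11, 9.03 and 9.17, a fall of 0.85 ± 0.11 (adjusted p = 0.000189). Its partner subunit Hadhb did not pass the test (-0.25 ± 0.10, adjusted p = 0.102). Acat1, which makes acetoacetyl-CoA in mitochondria, fell by 0.84 ± 0.09 (adjusted p = 3.85e-05) and the synthetase Acsl3 fell by 0.84 ± 0.12 (adjusted p = 0.000277). All 3 probes of Crat, the carnitine acetyltransferase that exports acetyl units, were lower on HFD, the brightest by 0.75 ± 0.10 (adjusted p = 0.000212). Cpt1a read 8.02, 7.98 and 7.93 on ND and was not detected on any of the 3 HFD arrays, so that it was at least 1.34-fold lower on HFD (adjusted p = 5.22e-05).

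The remaining decreases were smaller: Abcd2 (0.44), Acot8 (0.37), Acadl (0.30), Etfdh and Acsl5 (0.24 each), Decr2 (0.23), Acadvl (0.20), Etfb (0.18) and Acaa2 (0.16). Those of Acaa2, Acsl5, Decr2, Etfb and Etfdh, and the rise of Acaa1a, were lost when single arrays were left out, with adjusted p from 0.0514 to 0.143; any ND or HFD array lost 1 or more of them, and UR 2 lost Acaa1a. The other 13 calls passed without any 1 array, and 12 of them, all decreases, also passed with median scaling, which lost Acadl. The 23 members that did not pass ranged from -0.25 for Hadhb to 0.14 for Hsd17b4, and included the medium-chain dehydrogenase Acadm (0.11), Ehhadh (-0.01), Scp2 (0.03) and Cpt2 (-0.07). Markers of other cell types moved in the same arrays. Summed marker signals, here and below, take in every probe of the listed genes on the array, detected or not. Of 6 measured macrophage markers 5 rose and 1 fell, and the sum over 7 ran from 7605 to 8032 on ND and from 12228 to 14781 on HFD. The 2 measured mesothelial markers rose, and the sum over 6 ran from 8306 to 8636 on ND and from 15843 to 16481 on HFD. The part of these cell types in the decreases of the members was not tested. In bulk tissue fewer cells of a type and less RNA per cell cannot be told apart.

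**Figure D2:**
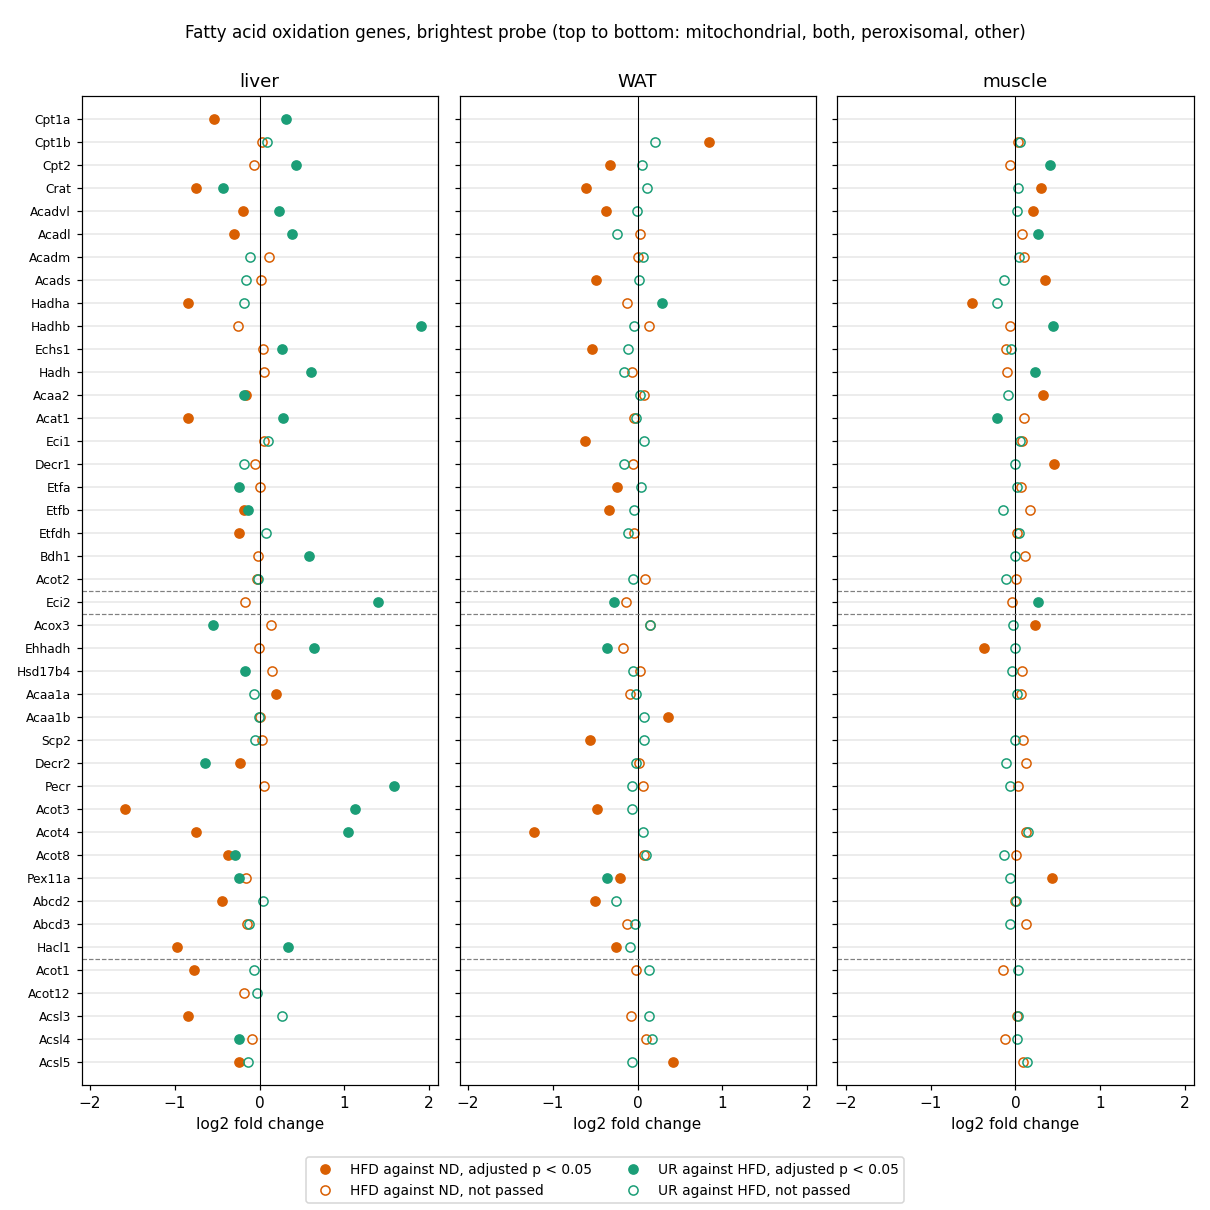
Change of every measured member in log2 signal (horizontal axis) in liver, WAT and muscle for HFD against ND and UR against HFD, by limma over 9 arrays of a tissue; filled points passed an adjusted p of 0.05, and dashed lines part the compartments. Most filled liver points for HFD against ND lie left of 0, down to -1.59 for Acot3, and the liver points for UR against HFD spread from -0.65 to 1.90.

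Adding UR to the HFD moved liver members in both directions. Against HFD, 15 of 42 rose and 10 fell, where 19.3% of all genes rose and 35.5% fell, and 63.8% of all genes had groups that did not overlap. The members' median was -0.01 against -0.09 for all genes. With median scaling in place of quantile normalization, the median of all genes became 0.10, and 33.8% of all genes rose and 12% fell. The members' counts became 20 and 3, so that most of the decreases depended on the scaling. Among mitochondrial members 9 of 21 rose and 4 fell, and among peroxisomal members 5 of 15 rose and 5 fell. Of the 25 calls, 14 passed both with median scaling and without any 1 array: 12 increases and the decreases of Decr2 and Acox3. HFD against ND and UR against HFD share the HFD arrays, so that for single members the levels on all 3 diets are given.

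Hadhb had the largest increase among the brightest probes. Its liver signals were 11.60, 11.38 and 11.34 on ND, 11.27, 11.02 and 11.28 on HFD and 13.26, 13.13 and 12.89 on UR. All UR pools stood above the pools of the other diets, by more than 1 log2 unit, and it rose by 1.90 ± 0.10, or 3.73-fold, over HFD (adjusted p = 1.06e-08). Hadha on the same arrays read 9.09, 8.94 and 8.72 on UR against 9.11, 9.03 and 9.17 on HFD, and its change of -0.19 did not pass the test. Each subunit was read by 1 probe, and the difference between their changes was not tested. The genes lie head to head on chromosome 5, Hadha on the minus and Hadhb on the plus strand, with starts 273 bases apart. The 250 bases before the Hadhb start (RefSeq, GRCm38.p6, chr5:30155003-30155252, plus strand) are shown because this window lies between the pair; capitals mark GGGCGG, which matched at 90 and 25 bases before the start.
Hadhb: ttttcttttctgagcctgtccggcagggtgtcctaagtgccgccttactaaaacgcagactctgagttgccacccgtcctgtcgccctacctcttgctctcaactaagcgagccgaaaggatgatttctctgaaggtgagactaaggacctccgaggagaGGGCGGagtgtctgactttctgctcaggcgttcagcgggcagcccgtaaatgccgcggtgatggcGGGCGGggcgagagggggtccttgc
GGGCGG, searched on both strands, was found in the windows of 24 of the 38 members that have 1 and in 35.4% of 27025 genes.

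Pecr, which reduces the double bond of trans-2-enoyl-CoA in peroxisomes, read 7.94, 7.95 and 7.98 on ND, 7.96, 8.03 and 8.02 on HFD and 9.54, 9.56 and 9.69 on UR. The ND and HFD pools overlapped and the UR pools stood apart, with a rise of 1.59 ± 0.06, or 3.01-fold (adjusted p = 1.33e-09). Eci2, an isomerase that prepares unsaturated chains for the cycle, showed the same order, with 11.54, 11.31 and 11.44 on HFD and 12.77, 12.97 and 12.70 on UR. It rose by 1.39 ± 0.11 (adjusted p = 2.27e-07). Hadh, the short- and medium-chain 3-hydroxyacyl-CoA dehydrogenase, rose by 0.60 ± 0.07 (adjusted p = 1.17e-05) and Bdh1 by 0.58 ± 0.07 (adjusted p = 1.87e-05), although the dimmer Bdh1 probe did not pass. None of these 4 genes had changed with HFD by the test (-0.17 to 0.05).

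Of the 3 peroxisomal thioesterases, Acot3 and Acot4 rose over HFD and Acot8 fell on its brightest probe; Acot3 rose by 1.12 ± 0.20 (adjusted p = 0.000341) and Acot4 by 1.04 ± 0.13 (adjusted p = 1.6e-05), while the other probes of Acot8 did not pass. Against ND the UR pools differed by -0.47 for Acot3 (adjusted p = 0.0518) and by 0.29 for Acot4 (adjusted p = 0.0625), neither past the test. The cytosolic Acot1 did not follow: it read 14.68, 14.13 and 13.79 on UR, a change of -0.07 from HFD, and was 0.84 lower than on ND. Hacl1 rose by 0.34 ± 0.09 (adjusted p = 0.00768), to 9.70, 9.88 and 9.48, and was still 0.65 lower on UR than on ND. Cpt1a, undetected on HFD, read 7.76, 7.77 and 7.72 on UR, at least 1.14-fold higher (adjusted p = 0.000837) and 0.23 lower than on ND (adjusted p = 0.00503). HFD pools were thus lowest for Acot3, Acot4, Hacl1 and Cpt1a, UR pools lay between the other diets for Acot3, Hacl1 and Cpt1a, and for Acot4 ND and UR pools overlapped.

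The windows before Cpt1a (chr19:3323051-3323300, plus strand) and Acot4 (chr12:84038129-84038378, plus strand) are shown because both genes were lowest on HFD and had a match to AGGTCA. Acot3 and Hacl1, also lowest on HFD, were not among the members with a match. Capitals mark AGGTCA on either strand, the hexamer that PPAR alpha and related nuclear receptors recognise as part of a repeat, at 94 and 13 bases before the start.
Cpt1a: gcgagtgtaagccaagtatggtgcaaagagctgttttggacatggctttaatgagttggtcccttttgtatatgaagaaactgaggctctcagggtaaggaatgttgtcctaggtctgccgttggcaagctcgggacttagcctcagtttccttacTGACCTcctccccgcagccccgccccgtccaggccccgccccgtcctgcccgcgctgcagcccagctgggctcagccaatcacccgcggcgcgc
Acot4: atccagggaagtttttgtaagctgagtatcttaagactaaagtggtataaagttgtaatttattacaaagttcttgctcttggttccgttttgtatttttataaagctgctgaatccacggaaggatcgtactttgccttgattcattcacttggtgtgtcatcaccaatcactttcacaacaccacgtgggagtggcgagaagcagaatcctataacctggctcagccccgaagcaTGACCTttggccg
AGGTCA was found before 7 of 38 members (Cpt1a, Acadvl, Acadm, Echs1, Scp2, Acot4 and Acot12) and before 15.8% of all genes. The longer CAAAGGTCA, which overlaps it, was found before Acot4 alone among the members and before 0.485% of all genes. A tandem repeat, AGGTCA and again AGGTCA with any base between, was found before 0 of 38 members and before 0.0407% of all genes. Apart from the tandem repeat, the motifs were picked after the values were known.

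Another 6 members rose: Ehhadh (0.64 ± 0.23, adjusted p = 0.0337), Cpt2 (0.43), Acadl (0.38), Acat1 (0.27), Echs1 (0.26) and Acadvl (0.23). Ehhadh varied most between pools, with 12.40, 12.08 and 12.44 on HFD and 13.40, 12.85 and 12.58 on UR; the groups did not overlap, but without UR pool 1 its change was 0.41, and it lost its call without any of 4 of the 6 arrays (HFD 1 and 2, UR 1 and 2; adjusted p from 0.0521 to 0.154). Acat1 lost its call without HFD pool 3 or UR pool 1 (adjusted p from 0.0903 to 0.102) and Echs1 without HFD pool 3, where its change went from 0.26 to 0.17 (adjusted p = 0.0636). Decr2, the peroxisomal 2,4-dienoyl-CoA reductase, read 11.65, 11.74 and 11.64 on HFD and 11.03, 11.12 and 10.93 on UR, with no overlap. It fell by 0.65 ± 0.07 (adjusted p = 3.76e-06), and Acox3, the oxidase of branched chains, fell by 0.55 ± 0.06 (adjusted p = 8.46e-06). Crat fell by a further 0.43 ± 0.10 on its brightest probe, from 11.36, 11.37 and 11.16 to 11.06, 10.73 and 10.80, but by 0.15 with median scaling, where the call was lost. The decreases of Acaa2, Acot8, Acsl4, Etfa, Etfb, Hsd17b4 and Pex11a (0.14 to 0.29) were lost with median scaling too. Without single arrays (any HFD or UR array, or ND pool 3, for 1 or more of them), those of Acot8, Acsl4, Etfb, Hsd17b4 and Pex11a were also lost (adjusted p from 0.0518 to 0.184). All 4 endothelial markers measured fell in the same comparison. Of 6 measured macrophage markers 3 rose and 3 fell, and the macrophage sum ran from 8263 to 9567 on UR. The part of these cell types in the members' changes was not tested.

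**Figure D3:**
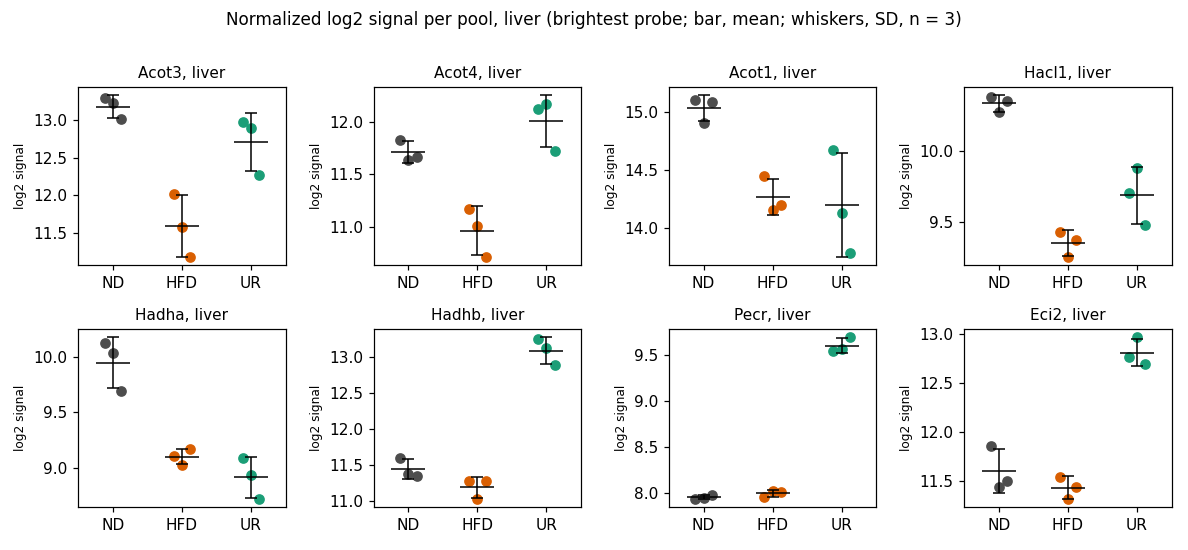
Log2 signal of 8 members in each liver pool (vertical axis) by diet, with 3 pools per diet and bars at the mean. Acot3, Acot4 and Hacl1 are lowest on HFD, Hadhb, Pecr and Eci2 are highest on UR, and Hadha is lower on both HFD and UR than on ND.

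Probes of a single gene often moved in opposite directions in liver between UR and HFD. Of 21 members with several kept probes, 7 had 1 probe that rose and another that fell (33.3%): Acaa2, Acsl4, Cpt2, Crat, Etfa, Etfdh and Pex11a. The same was true of 566 of 3566 genes with several probes (15.9%), whereas for HFD against ND in liver it held for 0 of 21 members and 0.393% of genes. Etfa, the alpha subunit of electron transfer flavoprotein, was the widest case. Its brightest probe read 15.33, 15.29 and 15.37 on HFD and 15.06, 15.16 and 15.05 on UR, a fall of 0.24. A dimmer probe read 12.84, 12.81 and 12.97 on HFD and 14.30, 14.22 and 14.25 on UR, and another read 12.61, 12.44 and 12.53 on HFD and 13.88, 14.04 and 14.09 on UR. Both dimmer probes of Etfa thus rose without overlap, by 1.38 (adjusted p = 4.12e-09) and 1.48 (adjusted p = 3.55e-09).

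Acaa2, the mitochondrial 3-ketoacyl-CoA thiolase, fell by 0.18 on its brightest probe and by 0.29 on another, and rose by 0.80 on a further probe (adjusted p = 4.87e-07). For Cpt2 the probes gave 0.43, 0.82 and -0.20, all past the test. Abcd3, a transporter of the peroxisomal membrane, showed the largest single-probe change of any member between these diets: its dimmest probe read 9.21, 9.01 and 9.08 on HFD and 11.17, 11.07 and 11.17 on UR, a 4.11-fold rise (adjusted p = 5.44e-09), while its other 3 probes changed by -0.13 to -0.07 and did not pass. The same Abcd3 probe rose in muscle by 0.57 (from 9.69, 9.50 and 9.66 to 10.17, 10.16 and 10.23), and both dimmer Etfa probes rose there by 0.41 and 0.46, while the brightest probes changed by -0.06 and 0.02. In muscle a single member, Hadh, had probes called in opposite directions (1 of 21, 4.76%, against 1.87% of genes). Where along the transcripts these probes lie was not used here, and whether they read different transcript forms was not tested. A statement on Etfa, Acaa2, Pex11a or Abcd3 in liver on UR therefore holds for a named probe only: with the mean over a gene's probes the changes were 0.87, 0.10, 0.22 and 0.44. The same holds for Abcd2, whose dimmer probe rose by 0.78, from 7.88, 7.91 and 7.89 to 8.70, 8.66 and 8.65. Its brightest probe overlapped between these diets, with 9.21, 9.47 and 9.14 on HFD and 9.33, 9.29 and 9.31 on UR.

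**Figure D4:**
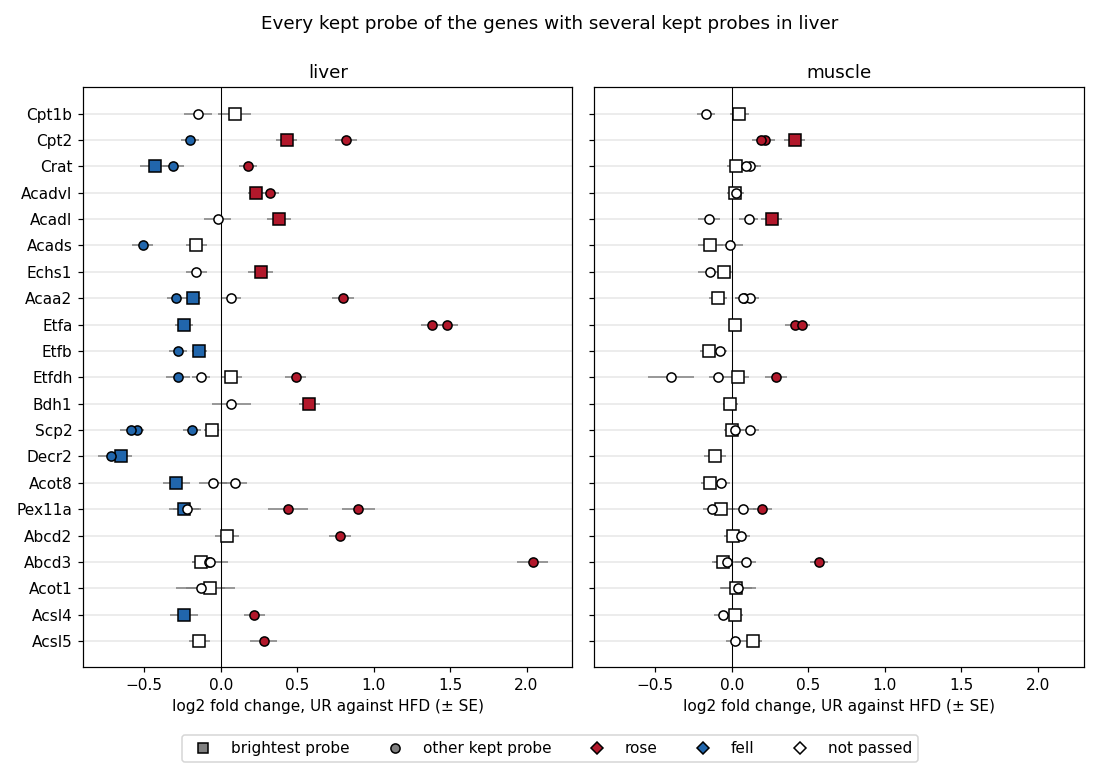
Change of every kept probe (horizontal axis, log2, UR against HFD) in liver and muscle for the 21 members with several kept probes in liver, which leaves out Hadh. Squares mark the brightest probe, red probes that rose and blue probes that fell at an adjusted p of 0.05. In liver the Etfa probes lie at -0.24, 1.38 and 1.48, and 1 of 4 Abcd3 probes lies at 2.04.

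In WAT, HFD lowered 14 of 39 members and raised 3, where 21.9% of all genes fell and 20.2% rose, and the members' median was -0.08 against -0.02 for all genes. Groups did not overlap for 15 lower and 3 higher members, and for 51.1% of all genes. Mitochondrial members made up 8 of the decreases and 1 increase (of 19), and peroxisomal members 6 and 1 (of 15). Acot4 read 9.94, 10.23 and 9.97 on ND, 8.71, 8.89 and 8.87 on HFD and 8.91, 8.98 and 8.76 on UR. The ND pools stood above all pools of the other diets, and Acot4 fell by 1.22 ± 0.09, or 2.34-fold (adjusted p = 4.31e-07). Acot3 was detected on ND and on none of the 3 HFD arrays, at least 1.19-fold lower (adjusted p = 1.13e-05).

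Of the mitochondrial cycle in WAT, Acadvl and Acads (very long- and short-chain dehydrogenases), the hydratase Echs1 and the isomerase Eci1 fell together with Crat. Eci1 read 13.03, 13.35 and 13.04 on ND and 12.51, 12.50 and 12.54 on HFD, and fell by 0.62 ± 0.08 (adjusted p = 6.51e-05). The decreases of Crat (0.61), Echs1 (0.54), Acads (0.49), Acadvl (0.37), Etfb (0.34), Cpt2 (0.32, with all 3 of its probes at -0.34 to -0.32) and Etfa (0.24) were smaller. Scp2, the thiolase and sterol carrier of peroxisomes, went from 14.34, 14.50 and 14.42 to 13.81, 13.87 and 13.92 and fell by 0.56 ± 0.07 (adjusted p = 3.35e-05), with its other probes at -0.57 and -0.56. Abcd2, the transporter with its highest level in WAT, fell by 0.50 (adjusted p = 0.000282), Hacl1 by 0.25 and Pex11a, a factor of peroxisome division, by 0.21.

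The 3 increases were in Cpt1b, Acsl5 and Acaa1b. Cpt1b read 8.35, 8.34 and 8.43 on ND, 9.14, 9.21 and 9.29 on HFD and 9.43, 9.36 and 9.48 on UR, with the ND pools lowest. It rose by 0.84 ± 0.06, or 1.79-fold (adjusted p = 6.33e-07). Acsl5 rose by 0.42 (adjusted p = 4.38e-05) and Acaa1b by 0.36 (adjusted p = 0.00129). Leaving out single arrays (HFD 1 to 3, ND 1 to 3 or UR 2) lost Hacl1 (adjusted p from 0.0514 to 0.0702) and Pex11a (0.0541 to 0.155); the other 15 calls passed every time, with median scaling too. Markers of cell types moved with diet in the depot. The summed signal of 7 macrophage markers on the array ran from 27922 to 30808 on ND and from 85172 to 106801 on HFD. Of the 6 measured, 5 rose (Gpnmb by 3.55) and Cd163 fell. Of 6 adipocyte markers 4 fell (Cidec by 0.36) and Lep rose, while their summed signal ran from 140540 to 156947 on ND and from 156100 to 162231 on HFD. The part of these cell types in the changes of the members was not tested.

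UR against HFD in WAT passed for 4 of 39 members: 1 rose (background 3.50%) and 3 fell (background 3.93%), with a median of -0.02 against 0.01, and 35.2% of all genes without overlap. Hadha rose by 0.29, and Ehhadh (0.36), Pex11a (0.36) and Eci2 (0.28) fell. Abcd2 did not pass on its brightest probe (-0.26, adjusted p = 0.0639), but its dimmer probe fell by 0.45 (adjusted p = 0.00357). A dimmer Etfdh probe rose by 0.25 (adjusted p = 0.0364), while the brightest did not pass. Each of the 4 lost its call without 1 or more single arrays. Hadha lost it without HFD 1 or 3 or UR 1 or 2 (adjusted p from 0.0731 to 0.112), Ehhadh without HFD 2 or 3 or any UR array (0.0872 to 0.195), Pex11a without HFD 2 or 3 or UR 1 (0.0568 to 0.0718) and Eci2 without any array of either diet (0.0588 to 0.171). The members lowered by HFD stayed low: Acot4 changed by 0.06 on UR, Crat by 0.11, Scp2 by 0.07 and Acads by 0.02, none past the test. Macrophage markers summed to 96638 to 119275 on UR, with a median change of 0.12. Mesothelial markers summed to 4638 to 5452 on HFD and 2891 to 3153 on UR (3 of 6 fell), and fibroblast markers to 91138 to 92894 and 74957 to 79405 (3 of 7 fell); their part was not tested.

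In muscle, 7 of 37 members rose with HFD and 2 fell, where 7.10% of all genes rose and 7.33% fell. The members' median was 0.08 against 0.01; 12 members had higher and 4 lower HFD arrays without overlap, and 32.4% of all genes did not overlap. These counts turned with the scaling: with median scaling the median of all genes became -0.11, 1 member rose and 5 fell, where 0.719% of all genes rose and 19.6% fell. Decr1, the mitochondrial 2,4-dienoyl-CoA reductase needed for polyunsaturated chains, was the 1 member that passed under both scalings and without any 1 array. Its signals were 11.63, 11.34 and 11.60 on ND, 11.96, 12.03 and 11.95 on HFD and 11.94, 12.00 and 11.98 on UR. The ND pools lay below all others, and it rose by 0.46 ± 0.07, or 1.38-fold (adjusted p = 0.000859).

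Under quantile normalization Pex11a rose in muscle by 0.43 ± 0.09 (adjusted p = 0.00822), and all 4 of its probes rose, by 0.26 to 0.46. Acads (0.35), Acaa2 (0.32), Crat (0.30), Acox3 (0.23) and Acadvl (0.21) rose too, and all of these lost their calls with median scaling; Acox3 also lost it without ND pool 3 (adjusted p = 0.0582). Ehhadh fell by 0.37 and Hadha by 0.51. Hadha read 9.32, 8.92 and 8.74 on ND and 8.22, 8.87 and 8.36 on HFD, so that its groups overlapped, and it lost its call without HFD 1 or 3, ND 1 or 2 or UR 2 (adjusted p from 0.0653 to 0.184; change from -0.54 to -0.35). Ehhadh lost it without HFD 2 or 3 or ND 1 (0.054 to 0.0676). The muscle carnitine palmitoyltransferase Cpt1b stayed within 13.96 to 14.22 on all 9 arrays on its brightest probe, while its dimmer probe, at 11.42, 11.55 and 11.37 on ND and 11.68, 11.61 and 11.77 on HFD, rose by 0.24 (adjusted p = 0.021). In the same muscle arrays fibroblast markers summed to 19224 to 21160 on ND and 16447 to 17352 on HFD (1 of 7 fell), and macrophage markers to 3665 to 3926 and 3551 to 3606 (2 of 5 measured fell); their part in the members' changes was not tested.

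Against HFD, UR raised 5 of 37 members in muscle and lowered 1, where 11.5% of all genes rose and 10.6% fell; the median was 0.01 against -0.02, with 42.1% of all genes without overlap. Hadhb rose again: it read 14.18, 14.35 and 14.13 on ND, 14.14, 14.22 and 14.12 on HFD and 14.58, 14.59 and 14.63 on UR. All UR pools lay above the other 6, and the rise was 0.44 ± 0.05, or 1.36-fold (adjusted p = 0.000156). Cpt2, the inner-membrane carnitine palmitoyltransferase, went from 13.03, 13.14 and 13.40 to 13.59, 13.51 and 13.69 and rose by 0.41 ± 0.07 (adjusted p = 0.00217), with its other probes up by 0.22 and 0.19. Hadhb and Cpt2 were the members whose calls held without any 1 array and with median scaling. Eci2 rose by 0.27 (adjusted p = 0.00462; 0.0509 with median scaling). Acadl (0.26) lost its call without HFD 1 or 3 or UR 2 or 3 (adjusted p from 0.0609 to 0.0921), and Hadh (0.23) without HFD 2 or UR 1 or 3 (0.0521 to 0.078). Acat1 fell by 0.22 and lost its call without HFD 1 or 3 or UR 1 or 2 (0.0513 to 0.0696). Of the 12 peroxisomal members 0 passed in limma and 2 had an unadjusted p below 0.05; they ran from -0.14 to 0.15, with a median of -0.03. Fibroblast markers summed to 21466 to 22663 on UR, above their HFD range (6 of 7 rose), and adipocyte markers to 1441 to 1606 on HFD and 1473 to 2423 on UR; their part was not tested.

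The size of the UR response of Hadhb differed between the tissues: it was 1.46 ± 0.12 larger in liver than in muscle in a joint fit of all 27 arrays (adjusted p = 2.48e-10). For Pecr the difference was 1.66 ± 0.09 (adjusted p = 6.34e-13), since it changed by -0.07 in muscle, and for Acot4 it was 0.89 ± 0.15 (adjusted p = 2.36e-05). Cpt2 rose by 0.43 in liver and 0.41 in muscle on its brightest probe, and the difference of 0.03 ± 0.11 did not pass (adjusted p = 0.87). Its other probes differed between the tissues: 1 rose by 0.82 in liver and 0.22 in muscle (difference 0.59, adjusted p = 1.97e-05), and the other fell by 0.20 in liver and rose by 0.19 in muscle (difference -0.40, adjusted p = 0.00481). For UR against HFD 43.3% of all probes differed between liver and muscle, 50.3% between liver and WAT and 18.7% between WAT and muscle. Arrays of different tissues were treated as independent in this fit, and whether they came from the same mice was not used.

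Several members moved in opposite directions in different tissues when the mice ate the HFD. Crat, which buffers acetyl-CoA as acetylcarnitine, fell in liver (0.75) and WAT (0.61) and rose in muscle (0.30). In muscle it read 12.31, 12.20 and 12.15 on ND and 12.47, 12.63 and 12.47 on HFD; in WAT it read 11.72, 12.19 and 11.90 and then 11.28, 11.39 and 11.31. The liver and muscle changes differed by -1.05 (adjusted p = 2.1e-06) and those of WAT and muscle by -0.91 (adjusted p = 6.57e-06). Acadvl showed the same order. On the probe that was brightest in liver and muscle it fell by 0.20 in liver and rose by 0.21 in muscle (difference -0.41, adjusted p = 0.00116), and on the probe that was brightest in WAT it fell by 0.37 there and rose by 0.19 in muscle (difference -0.56, adjusted p = 2.3e-06). Acads went down in WAT and up in muscle (difference -0.84, adjusted p = 1.78e-06), and Acsl5 down in liver and up in WAT (difference -0.66, adjusted p = 1.48e-06). For HFD against ND 25.8% of all probes differed between liver and muscle, 31.5% between liver and WAT and 30.1% between WAT and muscle. These members were picked for opposite calls on the same arrays, so that the tests of the differences are no separate support. The rises in muscle were those that median scaling lost.

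**Figure D5:**
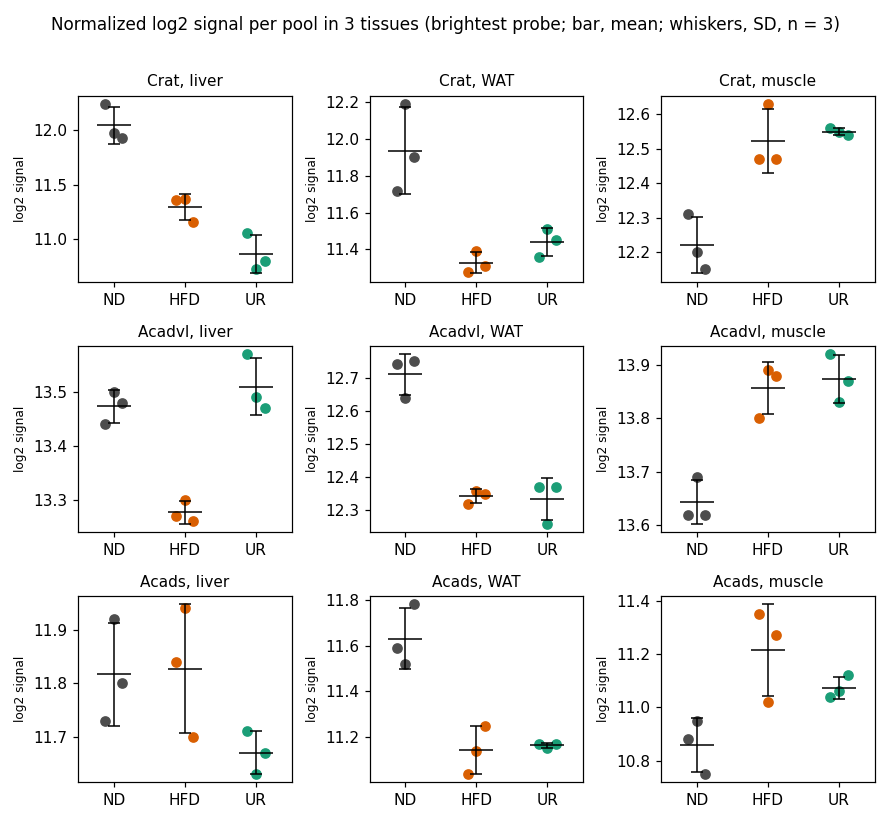
Log2 signal of Crat, Acadvl and Acads in each pool (vertical axis) by diet in liver, WAT and muscle, 3 pools per diet with bars at the mean. In WAT the HFD and UR pools of all 3 genes lie below the ND pools, whereas in muscle the HFD pools lie above them, such as 12.47 to 12.63 against 12.15 to 12.31 for Crat.

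Mitochondrial and peroxisomal members were also set against each other within each comparison, as the difference of their median changes. This difference was 0.08 (SD over the 3 pools of the first-named diet, 0.04) for HFD against ND and 0.15 (0.08) for UR against HFD in liver, 0.06 (0.07) and 0.02 (0.02) in WAT and 0.00 (0.04) and 0.05 (0.04) in muscle. The medians themselves were -0.07 and -0.15 in liver on HFD and 0.09 and -0.06 on UR, in the order mitochondrial and peroxisomal. The difference for UR against HFD in liver depended on the processing (0.25 with median scaling, -0.12 with the mean over a gene's probes). UR against ND in liver, which shares its arrays with both comparisons, gave medians of -0.06 and -0.28. Between liver and muscle on the normal diet the medians were -0.12 and 2.87, in the same order. Placing Eci2 with the peroxisomal members gave 0.09 and 0.12 in liver. The spread within each compartment was wider: on UR in liver the mitochondrial members ran from -0.43 for Crat to 1.90 for Hadhb and the peroxisomal members from -0.65 for Decr2 to 1.59 for Pecr.

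A second list of 42 genes of related steps (branched-chain acyl-CoA dehydrogenases, peroxisome assembly, ketone body enzymes and regulators) gave the surroundings of the pathway. In liver 7 of 34 measured rose and 4 fell with HFD (median 0.01), where 16.3% of all genes rose and 11.2% fell. With UR 9 rose and 9 fell (median -0.07), where 19.3% of all genes rose and 35.5% fell. Pdk4, the kinase that holds back glucose oxidation, fell by 1.94 ± 0.11 with HFD (adjusted p = 2.79e-07) and by a further 1.04 with UR (adjusted p = 4.01e-06). With UR Acadsb, a dehydrogenase of short branched chains, rose by 2.06 (adjusted p = 4.65e-09), the peroxisomal carrier Slc25a17 by 1.12 (adjusted p = 1.16e-06), catalase (Cat), which breaks down the hydrogen peroxide of peroxisomal oxidation, by 1.06 (adjusted p = 6.29e-07), and malonyl-CoA decarboxylase (Mlycd), which removes the inhibitor of Cpt1, by 0.89 (adjusted p = 7.18e-07). The receptor gene Ppara, named after its values were seen, fell by 0.23 under quantile normalization. Member decreases of a like size in this comparison were lost with median scaling, and the value of Ppara under that scaling is not given. Acadsb also fell by 0.83 with HFD and rose by 0.95 with UR in muscle (adjusted p = 0.000263 and 4.74e-05), where Cat rose by 0.40. In WAT 2 of 33 rose and 16 fell with HFD (median -0.16), where 20.2% of all genes rose and 21.9% fell. The decreases were led by Ivd (0.89) and Pccb (0.77), enzymes of branched-chain amino acid breakdown. With UR 1 rose and 5 fell in WAT, where 3.50% of all genes rose and 3.93% fell. In muscle 2 of 32 rose and 3 fell with HFD, where 7.10% of all genes rose and 7.33% fell. With UR 3 rose and 3 fell there, where 11.5% of all genes rose and 10.6% fell.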

How the data were processed

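The 46 members and the gene lists were chosen with earlier results of these data known. The authors deposited non-normalized intensity values and detection p-values for 45281 probes on 27 arrays, and a table of log2 values that they had normalized; the software versions are not given in the sources used here. In that log2 table the 9 columns of muscle equalled those of WAT in all 45281 rows, so these 9 columns were not used, and the liver and WAT columns served as an alternative. For each tissue the intensities of its 9 arrays were brought to 1 distribution (quantile normalization) and put on the log2 scale, with the background left in; the number of beads and pools limits their precision. Probes were kept at a detection p below 0.05 on all 3 arrays of a diet group (17518 in liver, 19455 in WAT, 16332 in muscle). limma 3.58.1 (R 4.3.3) compared the diets in a fit of all 9 arrays whose prior variance followed intensity, and calls needed an adjusted p of 0.05. Probes took their symbols from the platform annotation. The named members were all 46, and up to 6 genes per comparison of the related list by smallest p. The procedure was tested on simulated data.

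Alternatives were other scalings and filters, a nec background correction (offset 16), other rules for several probes and each array left out. Other tests were the t-test, which the paper names for its measured parameters, and rank products, which it names for the arrays. The rank products were re-implemented here. Authors' fold changes were not used.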

Additional observations from a re-analysis of the deposited data

Results flagged for a closer look

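Each of these members was called in opposite directions in a pair of tissues. The difference between the tissues is given with its adjusted p from the joint fit of 27 arrays. It is no separate support, since the members were picked for opposite calls on these same arrays, which made a pass likely. For HFD against ND the change in liver minus that in muscle was -0.66 for Acaa2 (adjusted p = 1.9e-05; on the probe that was brightest over both tissues, which fell by 0.34 in liver and rose by 0.32 in muscle), -0.41 for Acadvl (adjusted p = 0.00116) and -1.05 for Crat (adjusted p = 2.1e-06). For Acsl5 the change in liver minus that in WAT was -0.66 (adjusted p = 1.48e-06). The change in WAT minus that in muscle was -0.84 for Acads (adjusted p = 1.78e-06), -0.56 for Acadvl (adjusted p = 2.3e-06; on its brightest WAT probe, which differs from the liver and muscle probe), -0.91 for Crat (adjusted p = 6.57e-06) and -0.64 for Pex11a (adjusted p = 0.000844). The muscle increases of Acaa2, Acadvl, Crat, Acads and Pex11a were lost with median scaling.

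For UR against HFD the change in liver minus that in muscle was 0.49 for Acat1 (adjusted p = 0.000934), which rose by 0.27 in liver and fell by 0.22 in muscle. In liver minus WAT it was 1.66 for Eci2 (adjusted p = 7.9e-12) and 1.00 for Ehhadh (adjusted p = 0.00203), and in WAT minus muscle it was -0.55 for Eci2 (adjusted p = 0.00268). The calls of Acat1 in both tissues, of Ehhadh in liver and WAT, and of Eci2 in WAT depended on single arrays.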

How the results depend on the processing

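Leaving out 1 array at a time gave, for the members that fell, counts in liver, WAT and muscle of 13 to 18, 12 to 14 and 0 to 2 for HFD against ND, and 5 to 12, 0 to 5 and 0 to 2 for UR against HFD; for those that rose, 0 to 1, 3 to 4 and 6 to 8, and 13 to 16, 0 to 2 and 4 to 5. The mitochondrial minus the peroxisomal median ran from 0.00 (without ND replicate 1) to 0.09, 0.03 to 0.06 and -0.05 to 0.02 for HFD against ND, and from 0.09 to 0.17, 0.01 to 0.09 and 0.01 to 0.08 for UR against HFD. The next counts are with median scaling, with the share of all genes in brackets. For HFD against ND 0 rose in liver (16.6%), and in muscle 1 rose (0.719%) and 5 fell (19.6%). For UR against HFD 3 fell in liver (12%). In muscle 3 rose (10.1%) and 0 fell (2.19%), and in WAT 2 rose (4.54%) and 1 fell (2.46%). The difference of the medians became 0.25 in liver and -0.01 in muscle on UR. On the normal diet that scaling gave 9 mitochondrial members higher in liver than in muscle, 7 the other way and 1 higher in WAT than in muscle, and turned Cpt2 (liver against muscle, 0.25) and Ehhadh (WAT against muscle, 0.45). In liver on UR it turned Acaa2 (0.08), Etfb (0.09), Hsd17b4 (0.06) and Pex11a (0.01).

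With the mean over a gene's probes 6 fell in liver, 2 fell in muscle and 2 rose in WAT on UR, and the difference of medians was -0.12 in liver and -0.02 in muscle on UR, and 0.04 in muscle and -0.03 in WAT on HFD; it turned Abcd3 (0.44), Acaa2 (0.10), Etfa (0.87) and Pex11a (0.22) in liver and Hadh (-0.04) in muscle on UR, and Etfa (-0.14) in muscle on HFD. When every probe had to pass in 1 direction, 4 fell in liver and 3 rose in muscle on UR, and 4 rose in muscle on HFD. Without a probe filter 1 fell in WAT on UR, and the difference of medians in liver on HFD was -0.01. Fits of 6 arrays gave 1 fall in muscle on HFD, and 2 rises and 5 falls in WAT on UR. Normalizing all 27 arrays together gave 1 fall in muscle, background correction 1 fall in muscle and 0 rises in liver, and the fit without an intensity trend the same, all on HFD. The t-test after Benjamini-Hochberg gave 0 rises and 10 falls in liver and 0 and 0 in muscle on HFD. On UR it gave 5 falls in liver, 1 rise and 0 falls in muscle and 0 and 0 in WAT. Unadjusted it gave 2 rises in liver on HFD, and 5 rises and 5 falls in WAT on UR. Rank products are the test the paper names for its arrays. They gave 0 rises and 9 falls in liver, 1 and 2 in WAT and 2 and 1 in muscle on HFD. On UR they gave 4 and 1 in liver, where limma gave 15 and 10, and 0 and 0 in WAT and muscle. Apart from median scaling, the counts of this section stand without the share of all genes called under the same setting. They therefore do not tell a change of the members from a change of all genes. The cause of these differences was not tested.

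Replicate numbers did not pair the samples: of 27 pairs, 3 had correlated deviations above 0.1 (range -0.15 to 0.20). A fit with the replicate number as a block kept 11 of 12 counts of calls; in WAT on UR 2 members fell, without Eci2 (adjusted p = 0.0524). Acaa1b in liver lay at the top of the measured range, and signals near the detection limit give bounds only.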
